A study of Zea mays with 9 samples.

Results

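A set of 129 transcripts from 120 genes, of 46599 transcripts listed in the maize primary root growth zone, was lower under mild water deficit than in well-watered roots and lower again under severe deficit. RNA-seq libraries of the inbred line B73 were made from the first 1 cm of primary root tips, root cap included, 26 h after seedlings were moved into vermiculite. The water potential of the vermiculite was -0.02 MPa for well-watered roots, -0.3 MPa for mild deficit and -1.6 MPa for severe deficit, as the sample labels have it, while the title of the series gives -0.03 MPa for the mild treatment. All seedlings were kept in the dark at near-saturation humidity. Each library pooled 5 root tips of 1 treatment, and there were 3 libraries per treatment, numbered 1, 2 and 3 (well-watered), 1, 3 and 4 (mild) and 1, 2 and 5 (severe). The growth zone is known to shorten as water becomes scarce, so a segment of fixed length holds more non-growing tissue in the drier treatments. In such bulk samples, fewer cells of a type and less RNA per cell cannot be told apart.

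The members were chosen from the deposited normalised read counts (CPM), in which the reads of a transcript are scaled by the reads on all listed transcripts of its library. Of the 46599 transcripts, 31984 had a well-watered mean of at least 1 CPM and a severe mean of at least 0.1 CPM. Among these, 1509 had a mild mean of at most 0.67 of the well-watered mean, and 186 of the 1509 also had a severe mean of at most 0.67 of the mild mean. In 129 of the 186, every mild library was below every well-watered one and every severe library below every mild one. Since the 9 libraries and the 3 contrasts between treatments were all used in the choice, the members' levels and falls are given as a description and without a test.

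Cells in the growth zone divide near the apex and elongate behind it, and under water deficit elongation continues only close to the apex. Abscisic acid, a hormone that accumulates in drying roots and helps to maintain their elongation, is sensed by soluble receptors of the PYL family. A receptor that has bound the hormone inhibits type 2C protein phosphatases (PP2C), and SnRK2 kinases, which these phosphatases otherwise hold inactive, then phosphorylate downstream proteins.

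The libraries held 33385679 to 52047078 reads on listed transcripts, and 3 reads, taken as the smallest count to be read as detection, were worth 0.058 to 0.090 CPM. Pearson's r of log2(CPM + 0.1) over the 31984 transcripts was 0.971 to 0.979 between replicates. The fully ordered arrangement of the 9 libraries, with a fall of any size at each step, occurred in 907 of the 31984 transcripts (2.84%). In the genome-wide quasi-likelihood test of edgeR, with an adjusted p (FDR) below 0.05 over all 46599 transcripts, 13.1% of transcripts were lower under severe deficit than in well-watered roots, 1.06% were lower under mild deficit than in well-watered roots, and 10.4% were lower under severe than under mild deficit. Among the members 129, 70 and 117 met these calls, a count which the rule itself favours and from which nothing is read. Markers of shoot photosynthesis (lhcb6 and lhcb7, 4 transcripts) summed to 4.35 to 4.80 CPM in well-watered, 4.51 to 5.60 CPM in mild and 6.55 to 8.01 CPM in severe libraries, and those of root hairs, root formation and the root stem cell niche (rth3, rtcs and wox5B, 5 transcripts) summed to 59.8 to 61.1, 62.7 to 65.6 and 53.6 to 57.2 CPM. Neither marker sum fell in the ordered manner of the members, while the sum of histone, cyclin and tubulin transcripts, given below, did. The root sum was mostly rth3 and hid opposite changes: of its 5 transcripts, 2 were lower and 2 higher under severe deficit by edgeR. The main rth3 transcript averaged 56.1 CPM in well-watered and 44.6 CPM in severe roots. The main rtcs transcript went from 2.10 to 8.67 CPM and wox5B from 0.758 to 1.78 CPM. The markers' part in the members' fall was not tested.

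The members together took 2826, 3058 and 2866 CPM in well-watered libraries 1, 2 and 3, 1380, 1282 and 1266 CPM in mild libraries 1, 3 and 4, and 576, 543 and 564 CPM in severe libraries 1, 2 and 5. Most members were of moderate or low abundance. The median well-watered mean was 7.09 CPM, with 53 members at 10 CPM or more, 5 at 100 CPM or more and 13 below 2 CPM. The median severe mean was 1.48 CPM, and the well-watered mean exceeded the severe mean by 2.28-fold in the flattest member, 5.39-fold at the median and 215-fold in the steepest.

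**Figure D1:**
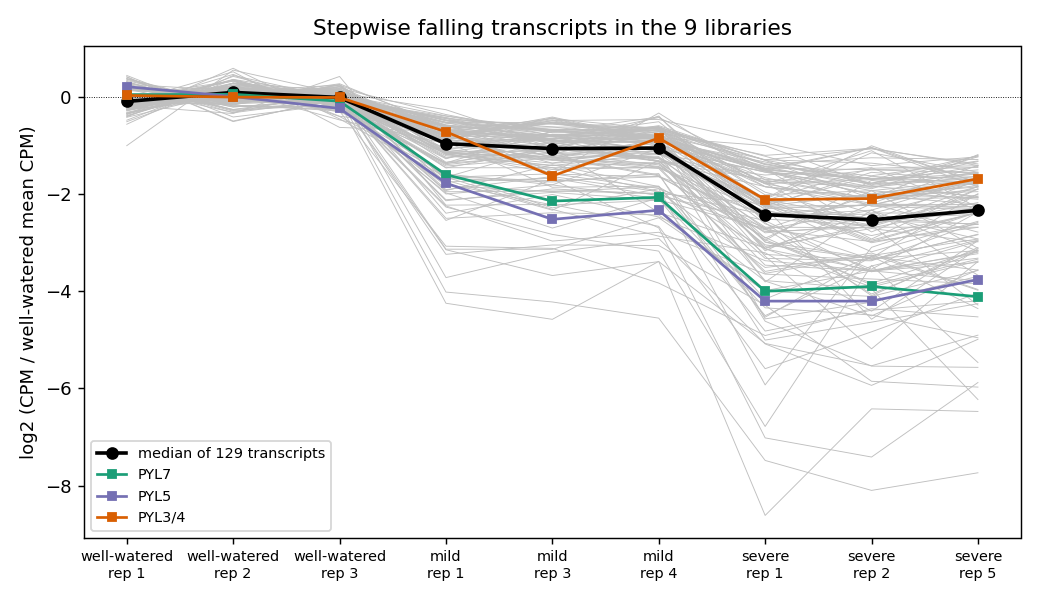
CPM of each of the 129 stepwise falling transcripts relative to its own well-watered mean (log2, vertical axis) in the 9 libraries (horizontal axis); grey lines are single transcripts, the black line their median, and coloured lines the abscisic acid receptors PYL7, PYL5 and PYL3/4. The choice fixed the order of the treatments and, through the ratio limit on each step, the least depth of the fall. The depth between well-watered and severe means was 2.28-fold to 215-fold. Its upper end was not fixed, although the minimum severe mean limits it for transcripts of low abundance.

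Among members with a named role, 3 encoded abscisic acid receptors. All 3 were genes of 1 exon and 1 annotated transcript, and every read counted on them was unique, so that no reads were shared with other transcripts. PYL7 (GRMZM2G144224_T01; chromosome 1, 46236786 to 46238037 in B73 RefGen_v3) was the 12th highest member by well-watered CPM. It had 63.3, 63.7 and 57.7 CPM in well-watered libraries, 20.2, 13.9 and 14.7 CPM in mild libraries, and 3.84, 4.11 and 3.55 CPM in severe libraries. The mild libraries were about midway on the log scale, with 48.0% of the log2 fall reached by then, and the well-watered mean was 16.0 times the severe mean.

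PYL5 (GRMZM2G057959_T01; chromosome 9, 137279301 to 137280649) was at 27.6 TPM in well-watered roots, against 75.9 TPM for PYL7 (TPM, a unit that allows for transcript length), and fell as far. Its values were 27.8, 24.1 and 20.4 CPM in well-watered, 7.02, 4.19 and 4.77 CPM in mild, and 1.31, 1.31 and 1.78 CPM in severe libraries, a 16.5-fold span between the outer means. The third receptor transcript, listed under both PYL3 and PYL4 (GRMZM2G047677_T01; chromosome 6, 153281450 to 153282648), had 9.25, 9.04 and 8.99 CPM in well-watered, 5.51, 2.94 and 5.04 CPM in mild, and 2.09, 2.13 and 2.82 CPM in severe libraries. Its fall was the smallest of the 3, at 3.87-fold, and mild library 3 lay only just above severe library 5.

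The other receptors did not all share this pattern. Receptors were found by symbol, after the members' values had been seen: 9 PYL genes with 16 listed transcripts, of which 13 were not members. PYL2 (GRMZM2G134731_T01), the most abundant, stepped down by less than the rule required, with 97.8, 108 and 98.5 CPM in well-watered, 78.9, 76.2 and 63.2 CPM in mild and 50.1, 49.8 and 58.8 CPM in severe libraries. It was lower under severe deficit than in well-watered roots by edgeR (log2 fold change -1.05, SE 0.10, FDR = 1.16e-04). Its mild difference (log2 fold change -0.51, SE 0.10, FDR = 0.0374) lost its call without any 1 of the well-watered libraries, mild library 3 or mild library 4.

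A second PYL3 transcript (GRMZM2G154987_T01) fell only once. It averaged 6.03 ± 0.92 CPM in well-watered, 1.99 ± 0.14 CPM in mild and 1.90 ± 0.098 CPM in severe roots (SD, n = 3 each). Mild differed from well-watered (edgeR, log2 fold change -1.62, SE 0.16, FDR = 0.00122), whereas no difference between severe and mild passed the test (log2 fold change -0.15, SE 0.16, FDR = 0.560). The main transcript listed under PYL10 and PYL12 (GRMZM2G063882_T01) was slightly lower under severe deficit (log2 fold change -0.38, SE 0.07, edgeR FDR = 0.00413), at 32.4 ± 1.4 CPM in severe and 39.2 ± 2.5 CPM in well-watered roots (SD, n = 3 each). Of the 13 PYL transcripts that were not members, 3 (23.1%) were lower under severe deficit and 0 higher in the edgeR test, against 13.1% lower and 16.4% higher of all transcripts. At an unadjusted p below 0.05, 1 PYL transcript was higher, and DESeq2 also called 1 higher. On reads summed per gene, 6 of the 9 PYL genes, those of members included, were lower and 1 was higher under severe deficit. Of all genes, 26.7% were lower and 28% higher.

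PYL2 and the second PYL3 transcript, like the member receptors, come from genes of 1 exon and 1 annotated transcript. Of the other 11 transcripts, of PYL9, PYL10, PYL11 and the PYL10/PYL12 gene, 1 was lower under severe deficit and 0 under mild by edgeR. Of all transcripts, 13.1% and 1.06% were. Under mild deficit 2 of the 11 were lower at an unadjusted p below 0.05, and DESeq2 called 1. The receptors of 1 exon and 1 transcript include the members, chosen by their fall, so nothing is read from this division. The summed level of the 16 transcripts, members included, was 332 ± 10 TPM in well-watered, 201 ± 15 TPM in mild and 164 ± 8.0 TPM in severe roots. Members made up 34.8%, 15.9% and 5.86% of this sum in well-watered, mild and severe roots. Since they were chosen for falling, the fall of the sum partly restates the choice.

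No transcript of a PP2C phosphatase was a member, and more were higher than lower under severe deficit. Of 41 transcripts from 23 genes carrying a PP2C symbol, not all of which act with PYL receptors, 14 were higher (34.1%) and 3 lower (7.32%) under severe deficit, against 16.4% and 13.1% of all transcripts. Those that were lower were the main transcripts of PP2C22 (GRMZM5G833774_T01, log2 fold change -0.32, edgeR FDR = 0.00487) and PP2C18 (GRMZM2G015610_T01, -0.29, FDR = 0.0273) and a minor one of pp2c-1 (GRMZM2G047376_T01, -0.81, FDR = 0.0350), all named after their values were seen. Under mild deficit 3 were higher and 0 lower, against 1.38% and 1.06% of all transcripts. Under mild deficit 6 were lower at an unadjusted p below 0.05, and DESeq2 called 1 lower. PP2C11 (GRMZM2G308615_T01) had 0.934, 0.807 and 1.06 CPM in well-watered, 3.68, 4.61 and 4.75 CPM in mild and 34.3, 38.7 and 35.5 CPM in severe libraries. It rose at both steps by edgeR (log2 fold change 2.19, SE 0.14, FDR = 1.54e-04 for mild against well-watered, and 2.98, SE 0.12, FDR = 8.94e-06 for severe against mild).

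PP2C6, also listed as PP2C20 (GRMZM2G166297_T01), averaged 54.3 ± 8.1 CPM in severe and 8.74 ± 1.00 CPM in well-watered roots (SD, n = 3 each), and PP2C3 (GRMZM2G059453_T01) averaged 51.8 ± 3.6 CPM in severe and 11.0 ± 0.80 CPM in well-watered roots. In levels per length, PP2C3 was above PYL7 under severe deficit, at 48.3 TPM and 4.83 TPM, and below it in well-watered roots, at 10.0 TPM and 75.9 TPM. Of 18 SnRK2 transcripts from 7 genes, none was a member, 8 were higher (44.4%) and 1 was lower (5.56%) under severe deficit, against 16.4% and 13.1% of all transcripts. All 8 belonged to SnRK2.1, SnRK2.2 and SnRK2.6, and under 3% of the reads of each were unique. On reads summed per gene, 3 of the 7 SnRK2 genes were higher and 3 lower under severe deficit, against 28% and 26.7% of all genes. In edgeR 0 of 10 SnRK2 transcripts were higher when only unique reads were counted, at FDR below 0.05 and at an unadjusted p below 0.05 alike. Most of the 8 called higher on all reads, those of SnRK2.6 among them, had no unique reads. They could not enter that count, which therefore cannot decide on them. DESeq2 on all reads called 8 higher.

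**Figure D2:**
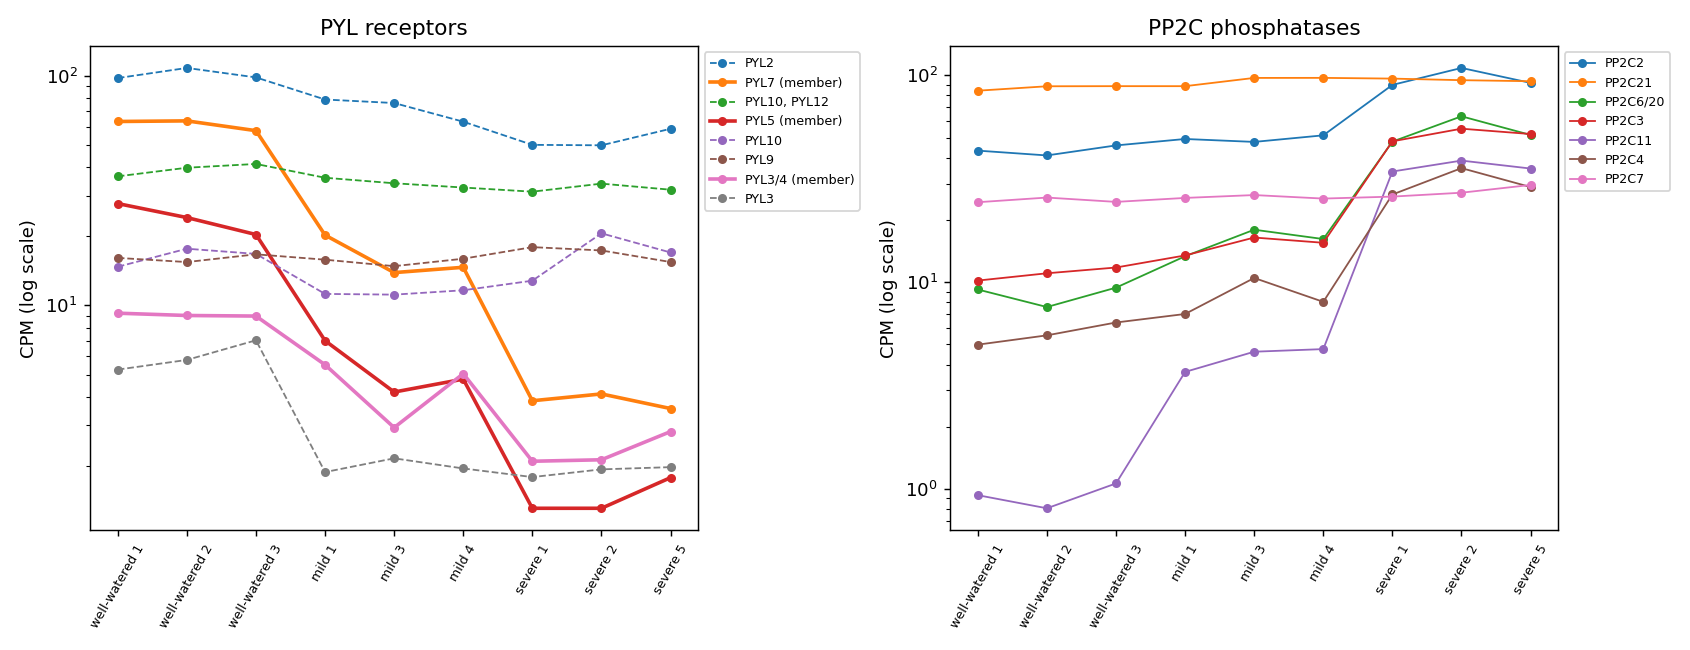
CPM on a log scale (vertical axes) in the 9 libraries (horizontal axes) of 8 PYL receptor transcripts (left; thick lines are members) and 7 PP2C transcripts (right). PYL7, PYL5 and PYL3/4 step down at each treatment while PYL9 and PYL10 stay near 11 to 21 CPM; PP2C11 is at 34 to 39 CPM in severe libraries and near 1 CPM in well-watered ones, and PP2C7 and PP2C21 stay level.

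Other members with a named role belonged to sucrose synthesis and transcription, while the gene xyl1 carried a symbol for which no role is given here. SPP2 (GRMZM2G097641_T01; chromosome 10, 89431021 to 89434146) encodes a sucrose-phosphate phosphatase, the enzyme of the last step of sucrose synthesis. It had 27.5, 29.7 and 26.1 CPM in well-watered, 16.7, 16.0 and 17.2 CPM in mild and 5.86, 6.92 and 8.32 CPM in severe libraries, with only 9.95% of its reads unique. Its second transcript (GRMZM2G097641_T02), not a member, was also lower under severe deficit (edgeR, log2 fold change -1.63, SE 0.26, FDR = 0.00151). The related gene spp1 was higher instead: its main transcript (GRMZM2G055489_T01) averaged 84.9 ± 0.92 CPM in severe and 51.9 ± 2.6 CPM in well-watered roots (SD, n = 3 each; log2 fold change 0.60, SE 0.06, edgeR FDR = 1.18e-04).

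The bZIP transcription factor gene listed as bZIP17 and bZip112 (GRMZM2G103647; chromosome 9) contributed 2 members. Its main transcript (GRMZM2G103647_T01) had 12.2, 15.4 and 12.0 CPM in well-watered, 6.23, 5.39 and 4.75 CPM in mild and 1.10, 1.42 and 0.846 CPM in severe libraries, an 11.8-fold span, with 6.38% of its reads unique. Of the other 65 listed transcripts of bZIP genes, 4 were lower (6.15%) and 19 were higher (29.2%) under severe deficit, against 13.1% and 16.4% of all transcripts. The zinc finger factor gene Nkd2, also IDD9 (GRMZM5G884137_T01), one of a duplicated pair known from maize endosperm, averaged 4.13 ± 1.36 CPM in well-watered, 2.43 ± 0.37 CPM in mild and 1.32 ± 0.54 CPM in severe roots (SD, n = 3 each), on 1.23% unique reads. A second transcript (GRMZM5G884137_T02), not a member, was not called under severe deficit (log2 fold change -1.10, SE 0.51, edgeR FDR = 0.144). Summed per gene, Nkd2 missed the rule, with a mild to well-watered ratio of 0.680. The main transcript of its partner Nkd1 (GRMZM2G129261_T01) was at 49.2 ± 1.0 CPM in severe and 45.5 ± 1.3 CPM in well-watered roots, a difference that did not pass the test (log2 fold change 0.01, SE 0.07, edgeR FDR = 0.948). The gene xyl1 (GRMZM2G170839) gave 2 further members, at 3.74 and 1.86 CPM in well-watered roots, with 0.514% and 0% unique reads.

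Symbols were available for few members: 58 of the 120 genes were found in the RefSeq table of maize genes and 7 carried a descriptive symbol. The lists that could be drawn from symbols held no further member. None was found among 480 transcripts of 254 other transcription factor genes (43 lower and 95 higher under severe deficit), 20 of expansins (1 and 12), 40 of aquaporins (5 and 14), 30 of cellulose synthases (4 and 6), 8 of class III peroxidases (1 and 2) or 76 of histones, cyclins and tubulins (25 and 1). Against 13.1% lower and 16.4% higher of all transcripts, these were 8.96% and 19.8% of the other transcription factors, 5% and 60% of the expansins, 12.5% and 35% of the aquaporins, 13.3% and 20% of the cellulose synthases, 12.5% and 25% of the peroxidases and 32.9% and 1.32% of the last list. In the last list, genes of dividing cells and of the cytoskeleton, 0 transcripts were lower under mild deficit by edgeR, against 1.06% of all transcripts. DESeq2 also called 0, and 3 were lower at an unadjusted p below 0.05. The summed level of this list nevertheless fell in the order of the treatments. It was 14527 to 14846.5 CPM in well-watered, 13482.6 to 14409.8 CPM in mild and 11315.5 to 12721.7 CPM in severe libraries. Its part in the members' fall was not tested.

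The most abundant member by far was GRMZM2G336694_T01, a transcript of 1 exon and 795 bases on chromosome 8 (10990065 to 10990859) for which no symbol was found. It had 426, 383 and 413 CPM in well-watered, 233, 158 and 205 CPM in mild and 73.3, 88.8 and 82.5 CPM in severe libraries. Per length it was also first, at 791 TPM in well-watered and 162 TPM in severe roots. GRMZM2G177491_T01, of 502 bases on chromosome 10, came next per length, at 353 TPM in well-watered, 190 TPM in mild and 99.8 TPM in severe roots. Its 3 mild libraries, at 63.7, 61.0 and 60.3 CPM, were much closer together than its severe ones, at 39.8, 28.3 and 27.2 CPM.

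The 15 members highest in well-watered roots differed in how deep they fell. At the shallow end were AC209819.3_FGT005 (88.9 ± 6.35, 50.7 ± 4.46 and 32.0 ± 0.505 CPM in well-watered, mild and severe roots; SD, n = 3 each), GRMZM2G066820_T02 (3.13-fold between the outer means) and both members of GRMZM5G828987 (3.56-fold and 3.52-fold). At the steep end was GRMZM2G410338_T01, of 1 exon and 741 bases on chromosome 5. It had 109, 128 and 113 CPM in well-watered, 13.2, 9.11 and 11.1 CPM in mild and 3.46, 2.52 and 3.89 CPM in severe libraries, so that most of its 35.5-fold fall was already seen under mild deficit.

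GRMZM2G126900_T02 had 142, 164 and 134 CPM in well-watered, 36.6, 41.7 and 34.3 CPM in mild and 5.19, 6.98 and 7.98 CPM in severe libraries. It is the main one of 5 annotated transcripts of its gene, and only 5.28% of its reads were unique. Summed over all transcripts the gene fell as steeply, and averaged 163 CPM in well-watered, 41.5 CPM in mild and 8.10 CPM in severe roots. GRMZM2G053720_T01 (12.1-fold), GRMZM2G143397_T01 (8.27-fold) and AC233953.1_FGT004 (6.09-fold) lay between, and GRMZM2G155837_T02, GRMZM2G426467_T01 and GRMZM2G136964_T01 fell by 4.4-fold, 3.94-fold and 4.87-fold.

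**Figure D3:**
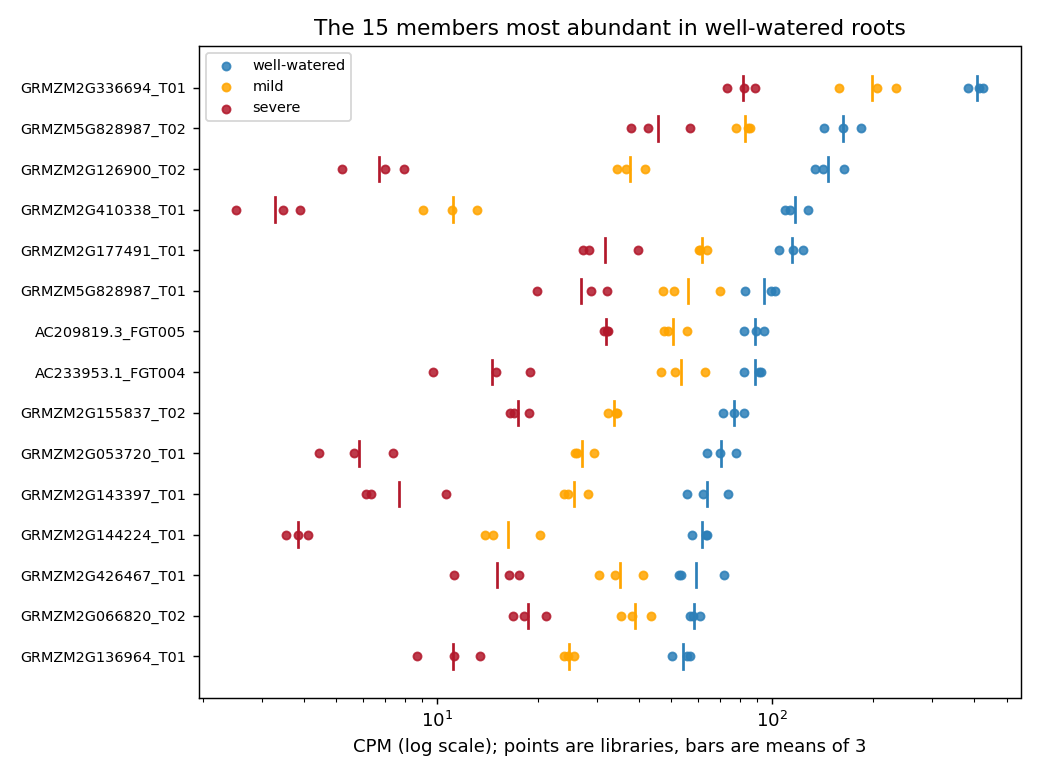
CPM on a log scale (horizontal axis) of the 15 members with the highest well-watered means (rows, from the highest down); points are libraries coloured by treatment and bars are means of 3. GRMZM2G336694_T01 is highest in each treatment, at 407, 199 and 81.5 CPM, and GRMZM2G410338_T01 has the widest gap between well-watered and mild libraries.

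The steepest members were nearly lost under severe deficit. GRMZM2G169240_T01, on chromosome 10, had 42.6, 54.6 and 47.0 CPM in well-watered, 2.97, 2.58 and 2.05 CPM in mild and 0.269, 0.176 and 0.226 CPM in severe libraries, a 215-fold span. Next came GRMZM2G169261_T03 with 15.0 ± 4.5, 0.952 ± 0.427 and 0.128 ± 0.077 CPM in well-watered, mild and severe roots (SD, n = 3 each). Severe library 1 held 0.0384 CPM, which is 2 reads and below the 3-read floor. Both transcripts had under 6% unique reads.

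GRMZM2G700321_T01 and GRMZM2G427954_T01, both on chromosome 7, were counted on unique reads alone and had spans of 98.1-fold and 38.8-fold. The first had 8.93, 11.3 and 9.70 CPM in well-watered, 1.71, 3.06 and 1.53 CPM in mild and 0.0769, 0.0585 and 0.169 CPM in severe libraries. Its value in severe library 2 is 3 reads, at the floor. With a severe mean of 0.102 CPM, just above the rule's minimum of 0.1 CPM, the depth of its fall is imprecise. The second averaged 7.17 ± 1.92, 0.757 ± 0.204 and 0.185 ± 0.059 CPM in well-watered, mild and severe roots (SD, n = 3 each). In all, 31 members had a severe mean under 0.1 of the well-watered mean, and 4 had fewer than 3 reads in at least 1 library.

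GRMZM2G117281, also on chromosome 7, had 2 steep members and 1 library that stood apart. Its transcript T03 (GRMZM2G117281_T03) had 0.442, 4.39 and 1.10 CPM in severe libraries 1, 2 and 5, of which library 2 came close to the lowest mild library at 5.38 CPM. Without severe library 2 its fitted log2 difference between severe and well-watered roots moved to -6.14, against -4.71 with all libraries. Transcript T01 of the same gene had its highest severe value in library 1 instead, at 0.634 CPM against 0.215 and 0.197 CPM. Over the members the coefficient of variation among severe libraries was 22.3% at the median, against 13.1% among well-watered ones, whereas over all 31984 transcripts the medians were 12.4% and 10.1%. By the choice the members were also at lower levels under severe deficit, with a median of 1.48 CPM against 7.09 CPM in well-watered roots. The part of these levels in the spread was not tested.

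The 2 steps were of similar size over the set but not in single members. The mild mean was 0.503 of the well-watered mean at the median and the severe mean 0.435 of the mild mean. The first step was the larger on the log2 scale in 55 members and the second in 74. By the mild treatment 48.3% of the log2 fall had occurred at the median, with quartiles of 37.4% and 55.6%. GRMZM2G027217_T01 was at the early extreme, with 76.2% of its fall by mild deficit and means of 24.3, 6.23 and 4.07 CPM in well-watered, mild and severe roots.

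GRMZM2G353076_T01 was at the late extreme with 17.1% and means of 3.55, 2.28 and 0.267 CPM. A more abundant late member was GRMZM2G135165_T01. It had 37.8, 52.8 and 53.8 CPM in well-watered, 23.9, 27.7 and 22.0 CPM in mild, and only 1.96, 1.03 and 1.02 CPM in severe libraries. Both steps were below 0.5 in 50 members.

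**Figure D4:**
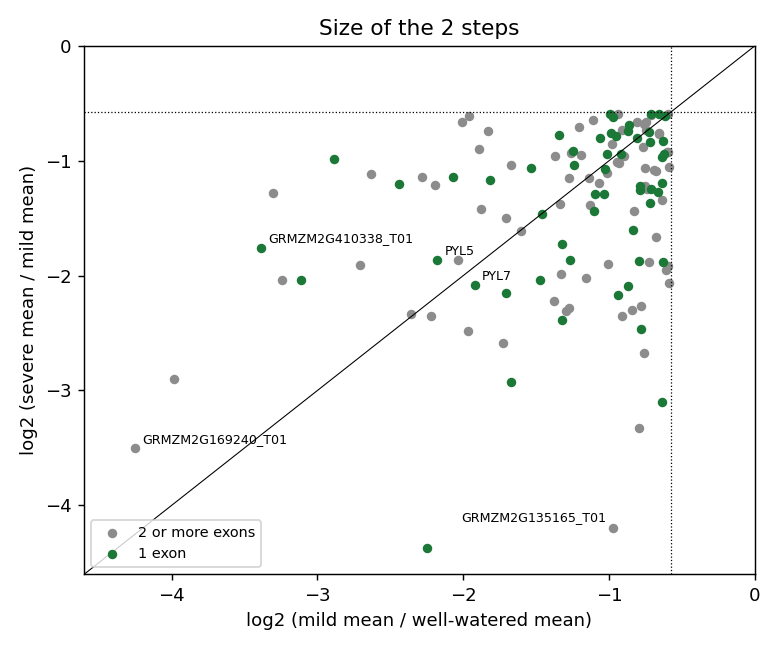
Size of the fall between severe and mild means (vertical axis, log2) against that between mild and well-watered means (horizontal axis, log2) for the 129 members; green points are transcripts of 1 exon, dotted lines mark the limit of 0.67 and the diagonal marks equal steps. Of the members, 74 lie below the diagonal, with the larger step under severe deficit, and GRMZM2G169240_T01 lies far down on both axes.

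Members close to the limits show how the set shades into its surroundings. Just inside the limit of the first step were GRMZM2G404237_T01, GRMZM2G066820_T02 and GRMZM2G022090_T01, with mild to well-watered ratios of 0.666, 0.665 and 0.661. Just outside were GRMZM2G056986_T01, GRMZM2G138401_T01 and GRMZM2G083474_T01, with 0.6704, 0.6714 and 0.6723. For the second step, GRMZM2G098047_T01, GRMZM2G427697_T01 and GRMZM2G017103_T01 were inside, with severe to mild ratios of 0.664, 0.664 and 0.663. GRMZM2G023952_T01, GRMZM2G145444_T01 and GRMZM2G002104_T01, with 0.676, 0.676 and 0.677, were outside.

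Whether the order held in a library that had no part in the choice was examined by leaving out each library in turn. The rule applied to the other 8 libraries chose 126 to 145 transcripts, of which 118 to 125 were among the 129. The library left out fell into its place in 89.1% to 96.0% of the transcripts so chosen, that is, above all mild libraries if well-watered, below all mild libraries if severe, and between the other treatments if mild. The size of the step was also computed with the library left out. With a well-watered library left out, the median ratio of the mild mean to it was 0.489 to 0.565, the highest for well-watered library 1, where the choosing libraries gave 0.511. With a severe library left out, its median ratio to the mild mean was 0.434 to 0.473, and with a mild library left out its median ratio to the well-watered mean was 0.457 to 0.522. Of the transcripts so chosen, 70.3% to 90.6% met the limit of 0.67 in the library left out, the lowest share being for well-watered library 1. The 8 libraries set beside the left-out one were those used in the choice, which favours these shares and ratios. No such share over all transcripts is given here, so they are a description only.

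Members differed from other transcripts in their gene models, which the rule did not use. A single exon was annotated in 55 of 129 members (42.6%) and in 4099 of the 31855 other transcripts past the same level limits (12.9%). The median length was 1345 bases against 1687, and 80 members (62.0%) came from genes with 1 annotated transcript, against 33.7%. Among genes with 1 annotated transcript alone, 46 of 80 members (57.5%) had a single exon against 26.8% of 10742 others. The difference was seen in each length class: 68.6% against 40.3% under 1000 bases, 51.4% against 28.1% from there to under 2000 bases, and 4 of 10 members against 16.2% at greater length. These shares are descriptions, since genes are not replicates of a treatment.

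**Figure D5:**
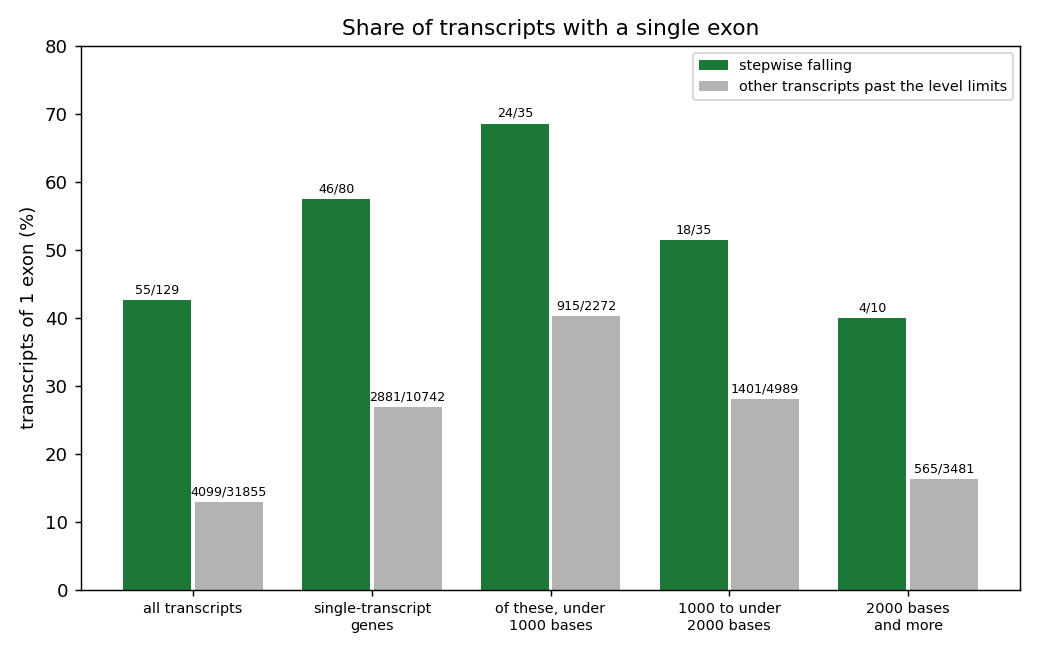
Share of transcripts with a single exon (vertical axis, %) among members (green) and other transcripts past the same level limits (grey), for all transcripts, for genes with 1 annotated transcript, and for these in 3 length classes; numbers above bars are transcripts of 1 exon over all of the class. The members' share is higher in each class, at 42.6% against 12.9% of all transcripts.

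Reads shared between transcripts touched a minority of members. All reads were unique in 80 members, and under 20% were unique in 36. When the rule was applied to unique reads scaled by the library's unique reads, it chose all 80 of the fully unique members and 18 of the other 49. Of the remaining 31, 23 were under a level limit on unique reads, 6 of them with both steps and the order met, and 8 were past the level limits but short of a step or of the order.

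Summed over whole genes, most but not all member genes were also lower. Of the 40 member genes with several annotated transcripts, 25 met the rule on their summed CPM, and 38 were lower under severe deficit on summed reads by edgeR, where 26.7% of all genes were lower. These sums include the members, which carried 83.6% of their gene's well-watered CPM at the median and less than 50% in 13 genes, so the choice favours the count and nothing is read from it. The 2 genes that were not called lower were GRMZM2G323754, with 44.5 CPM in severe and 42.6 CPM in well-watered roots, and GRMZM2G010095, with 47.6 and 39.8 CPM. In both, the falling transcript was a minor one, with 6.34% and 16.2% of the gene's well-watered CPM.

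The other listed transcripts of the member genes leaned the same way. Of 58 such transcripts, 22 (37.9%) were lower and 1 (1.72%) was higher under severe deficit by edgeR, against 13.1% and 16.4% of all transcripts. Their median log2 fold change was -0.89 against 0.00 over all transcripts. Under mild deficit 1 of the 58 (1.72%) was lower, close to the 1.06% of all transcripts. They can share reads with the members and are not independent of them. The transcript that was higher was GRMZM2G066820_T01, with 21.2, 23.0 and 25.2 CPM in severe libraries against 11.0, 12.7 and 11.4 CPM in well-watered libraries (log2 fold change 0.88, SE 0.11, FDR = 3.41e-04). Its partner GRMZM2G066820_T02, a member, had 21.1, 16.9 and 18.2 CPM in severe libraries against 58.2, 60.7 and 56.8 CPM in well-watered libraries, so the balance of the gene's transcripts was reversed, with 22.0% and 20.9% of the reads of the 2 transcripts unique.

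Some member genes were neighbours on the chromosomes. In 12 pairs consecutive member genes lay within 300 kb of each other, and in 7 of these no listed gene lay between. On chromosome 2, 4 genes of 1 exon on the minus strand followed each other between 130329123 and 130779353: GRMZM2G143397, GRMZM2G020183, GRMZM2G025205 and GRMZM2G164064. Their transcripts were 582 to 862 bases long with unique reads only, and their means were 63.8, 34.0, 23.9 and 23.7 CPM in well-watered, 25.6, 10.7, 13.4 and 11.6 CPM in mild, and 7.71, 1.40, 4.41 and 5.54 CPM in severe roots.

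Well-watered library 2 was the highest of its treatment in 3 of these 4 genes, and severe library 5 was the highest of its treatment in all 4. On chromosome 10, the steepest members GRMZM2G169240 and GRMZM2G169261 lay 988 bases apart on opposite strands, at 19075536 to 19077433 and 19078422 to 19080100, and together gave 5 members. Summed per gene they averaged 51.8 and 19.2 CPM in well-watered, 3.03 and 2.03 CPM in mild and 0.475 and 0.338 CPM in severe roots. With under 6% of their reads unique, how far reads were shared between these genes was not tested.

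On chromosome 4, GRMZM2G398529 and GRMZM2G098047 lay 700 bases apart on the plus strand and fell unequally, by 14.9-fold and 2.99-fold. Chromosomes 10 and 7 held the most member genes, 15 each, which was 1.09% and 0.905% of their genes past the level limits, against 0.397% to 0.681% on the other chromosomes. The genes next to members did not follow them as a group. Of 223 non-member genes adjacent to a member gene, 64 (28.7%) were lower and 55 (24.7%) higher under severe deficit on summed reads by edgeR, close to the 26.7% and 28% of all genes, and their median log2 fold change was -0.07.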

How the data were processed

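Per the labels, total RNA of pooled root tips was sequenced as 9 mRNA libraries. The authors trimmed the reads and mapped them with CLC Workbench to the B73 RefGen_v3 gene models, and deposited total and unique read counts and TPM for 63074 transcripts and CPM for 46599. The deposited CPM equal total counts scaled by the listed reads of the library, without TMM factors. The filter that selected the listed transcripts and the assignment of shared reads are not given in the sources used here.

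The members and the gene lists were chosen with earlier results of these data known. The lists had been meant for gene descriptions, but the RefSeq table (assembly Zm-B73-REFERENCE-NAM-5.0) gives symbols only, so 14 symbol lists were used. Named members were the 15 highest in well-watered roots, the 10 with the lowest severe to well-watered ratio, up to 3 per list and the 3 nearest each side of the ratio limits. The parts of the rule that needed descriptions could not be applied, and other members were named after their values were seen. Total counts were fitted in edgeR 4.0.16 (R 4.3.3) with TMM factors and treatment as the term, all 9 libraries sharing 1 spread, by the quasi-likelihood F-test with Benjamini-Hochberg adjustment over 46599 transcripts. An FDR below 0.05 was called. The script was tested on simulated data. Standard errors are the log2 fold change over the square root of F. Means and SDs are of CPM over 3 libraries, each of 5 pooled roots. Floors of 3 reads cover counting error only. Summaries used Python 3.11.15 and pandas 2.3.3, and DESeq2 1.42.0 was an alternative. Other alternatives were other normalizations, filters and limits, unique reads, reads summed per gene, a replicate block, and each library left out.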

Additional observations from a re-analysis of the deposited data

How the results depend on the processing

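With 3 libraries per treatment and members at a median of 1.48 CPM under severe deficit, the depth of single falls is imprecise, and 4 members reached counts under 3 reads. The rule chose 161 transcripts with TMM factors on the CPM (127 of the 129 members among them), 155 with DESeq2 size factors (126), 117 on unique reads (98), 186 on means alone and 135 without the severe minimum. It chose 50 with a ratio limit of 0.5, 300 with 0.8 (the maximum allowed, 114 of the 129 among them) and 81 with a well-watered mean of at least 5 CPM, as looser or stricter limits must. TMM factors and means alone together, an alternative added after the data had been seen, gave 232. Without each library the count was 126 to 145.

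Of the genome-wide counts, 13754 transcripts changed between severe deficit and well-watered, 1134 between mild deficit and well-watered, and 11290 between severe and mild deficit. The mild count was 1876 on unique reads, 2309 for genes on summed reads and 2343 with DESeq2, and without each library 554 to 1427. The ranges without each library were 10675 to 13528 and 8092 to 11447 for severe deficit against well-watered and against mild. Without TMM factors the median log2 fold change of all transcripts between severe deficit and well-watered was 0.11, against 0.00 with them, and the share of lower among changed transcripts was 32.5% against 44.5%, and 32.8% against 43.0% for severe against mild.

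The labels give shared replicate numbers to 5 pairs of libraries across treatments but no shared origin, and the deviations of same-numbered libraries correlated at -0.01 to 0.02, against -0.07 to 0.04 for other pairs. A replicate block gave 7453, 145 and 914 changed transcripts for severe against well-watered, mild against well-watered and severe against mild, with mild library 4 and severe library 5 contributing nothing. With the block, 5 PYL transcripts were lower, 11 PP2C and 7 SnRK2 transcripts higher and 15 other transcripts of member genes lower under severe deficit. Without each library these counts were 6, 13 to 16, 8 to 9 and 18 to 23. The SnRK2 count was 0 on unique reads, where most SnRK2 transcripts called higher had no reads and were not fitted. Of 956 fitted log2 fold changes of named members under the alternatives, 28 moved by more than 1 SD between replicates and none changed sign.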
